A study of Mus musculus with 22 samples.

Results

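The circadian clock genes of the mouse kidney were examined after ureteral obstruction. The set has 10 members, namely Bmal1, Clock, Per1, Per2, Per3, Cry1, Cry2, Nr1d1, Nr1d2 and Dbp. They were chosen by gene symbol from what is known of the clock and not by their values here, although earlier results of these data were known. Bmal1 is annotated on the array by its older symbol Arntl. All 10 were measured, by 18 probes, among 17039 genes and 29365 probes tested, and none of the 18 probes lacked a value on any array.

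C57BL/6 mice had the left ureter tied off under anaesthesia, which stops urine leaving that kidney, or had it only dissected free as a sham operation. Kidney RNA was taken 1, 2, 5 and 9 days later, labelled with Cy5 and hybridised beside a common mouse reference RNA labelled with Cy3. The 22 arrays gave 21 replicates, of which 8 were sham (2 at each day) and 13 obstructed (3 at days 1, 2 and 5 and 4 at day 9). The day 1 sham arrays S03L and S03R carry the same animal number and were averaged to the replicate S03. Array names end in L or R, letters that the labels leave unexplained, and S03R, S06R and S39R, the only arrays with an R, are sham. Nothing is given in the sources used here on the age and sex of the mice or the hour at which kidneys were collected. With 1 set of animals per day, days since surgery and hour of collection cannot be told apart.

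The circadian clock is a loop of transcription and feedback that runs in almost every cell with a period of about a day. BMAL1 and CLOCK pair to switch on the Per and Cry genes, whose proteins return to the nucleus and block that pair, while the nuclear receptors encoded by Nr1d1 and Nr1d2 (REV-ERB alpha and beta) repress Bmal1. Because of this wiring, Bmal1 RNA peaks when Dbp, Nr1d1 and the Per genes are low, so the levels of these genes depend on the hour of sampling. In the kidney the clock is known to time sodium and water transport and blood flow.

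Promoter sequence of 9 members was found in the RefSeq table (build GRCm38.p6, 250 bases before to 50 after each annotated start), and Per2 was not in it. The promoters of the 3 members that passed the comparison over all days, Per3, Cry1 and Nr1d1, are shown with that of Bmal1, since the last is the target of Nr1d1. They lie at chr4:151044616-151044915 on the minus strand (Per3), chr10:85185005-85185304 on the minus strand (Cry1), chr11:98775328-98775627 on the minus strand (Nr1d1) and chr7:113207261-113207560 on the plus strand (Bmal1, the second of its annotated starts). Capitals mark matches to the motifs searched.
Per3 promoter: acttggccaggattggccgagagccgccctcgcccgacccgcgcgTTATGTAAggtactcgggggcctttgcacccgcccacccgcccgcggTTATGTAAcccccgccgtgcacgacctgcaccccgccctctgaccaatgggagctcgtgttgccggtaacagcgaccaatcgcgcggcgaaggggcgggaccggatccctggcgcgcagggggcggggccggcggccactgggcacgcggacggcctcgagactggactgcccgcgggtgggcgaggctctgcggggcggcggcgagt
Cry1 promoter: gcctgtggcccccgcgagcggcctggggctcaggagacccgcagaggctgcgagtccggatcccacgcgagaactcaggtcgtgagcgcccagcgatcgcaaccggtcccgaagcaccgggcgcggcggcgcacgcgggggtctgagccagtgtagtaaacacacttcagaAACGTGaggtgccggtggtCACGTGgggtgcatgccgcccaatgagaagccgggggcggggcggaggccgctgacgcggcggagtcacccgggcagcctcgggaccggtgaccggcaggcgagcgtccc
Nr1d1 promoter: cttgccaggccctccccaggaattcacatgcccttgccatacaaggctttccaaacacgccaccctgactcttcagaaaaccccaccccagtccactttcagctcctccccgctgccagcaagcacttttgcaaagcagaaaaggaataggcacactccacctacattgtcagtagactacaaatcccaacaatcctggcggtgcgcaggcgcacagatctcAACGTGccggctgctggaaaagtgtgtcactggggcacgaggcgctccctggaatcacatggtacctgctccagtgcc
Bmal1 promoter: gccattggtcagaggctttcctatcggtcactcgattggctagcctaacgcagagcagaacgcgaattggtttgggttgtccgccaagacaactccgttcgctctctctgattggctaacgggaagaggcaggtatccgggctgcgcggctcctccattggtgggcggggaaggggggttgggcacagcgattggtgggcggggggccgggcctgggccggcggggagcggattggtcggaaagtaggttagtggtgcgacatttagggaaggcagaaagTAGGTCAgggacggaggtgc

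All motifs were searched on both strands, and no 2 matches shown overlap. The E-box CACGTG, the site to which BMAL1 and CLOCK bind, was in the promoters of Cry1, at position -60 from the start, and of Per1, at -166, and in 7.15% of the 32851 promoters in the table. The variant CACGTT, printed above as its complement AACGTG, was in those of Cry1, Cry2 and Nr1d1 and in 4.68% of all. The D-box TTANNTAA, the kind of site to which DBP and its relatives bind, stood at -205 and -158 in the Per3 promoter and in 6% of all. The REV-ERB and ROR core TAGGTCA was 31 bases past the second start of Bmal1 and in 2.61% of all, while TGGGTCA (3.98% of all) and the cAMP response element TGACGTCA (1.79% of all) were in none of the 9. These matches describe the letters of a short window and are not measured binding sites.

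Over the 4 days, Cry1 was higher in obstructed than in sham kidneys and Nr1d1 and Per3 were lower, while the other 7 members did not pass the test. Cry1, a repressor of BMAL1 and CLOCK, rose by 0.93 ± 0.20 on the log2 scale (SE, 13 obstructed against 8 sham), or 1.90-fold. Nr1d1, the repressor of Bmal1, had a difference of -0.48 ± 0.10 (1.39-fold lower) and Per3, a Period protein that is not needed for the core loop in mice, of -0.47 ± 0.12 (1.39-fold lower). The adjusted p was 0.00092 for Cry1, 0.00104 for Nr1d1 and 0.00309 for Per3 by limma with Benjamini-Hochberg adjustment over 17039 genes. Values are log2 ratios of kidney over reference RNA, differences are obstructed minus sham, and these p-values measure only the spread between these samples. Of all genes, 26.5% were called higher and 26.9% lower, beside 1 and 2 of the 10 members, so a call was no more frequent among the members than in the background. The median difference of the members was -0.28, and that of all genes -0.02. With quantile normalization the call of Cry1 was lost, at a difference of 0.40 and a limma adjusted p of 0.108. In whole-kidney RNA, fewer cells of a type and less RNA per cell cannot be told apart.

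Markers of cell types moved on the same arrays. Of the kidney tissue markers, 12 of 15 measured were lower and 0 higher, with a mean level of 5.29 to 5.73 in sham and 4.33 to 5.09 in obstructed kidneys. All 8 measured macrophage and neutrophil markers were higher (mean level -0.35 to 0.86 in sham, 0.94 to 3.01 in obstructed), as were all 9 fibroblast markers (-2.07 to -0.67 and -1.15 to 1.82). Of the other marker lists, 2 of 7 lymphocyte genes were higher and 1 lower, 0 of 6 endothelial genes higher and 3 lower, and 2 of 8 urothelium, adipose and adrenal genes higher and 1 lower. The part of these cells in the clock genes' differences was not tested.

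Nr1d1 was the member whose obstructed replicates lay below every sham replicate of the same day at all 4 days. At day 1 the sham values were 0.30 and 0.19 and the obstructed values -0.17, -0.28 and -0.18. At day 2 they were 0.11 and -0.19 against -0.25, -0.58 and -0.41. The lowest sham and the highest obstructed value lay close together at this day and at day 9, and further apart at days 1 and 5. At day 5 the values were 0.35 and 0.40 against 0.04, 0.03 and -0.53, and at day 9 they were 0.13 and 0.61 against -0.56, 0.10, -0.03 and -0.21. The exact permutation test that moved labels within days gave a 2-sided p of 6.67e-05 (8 sham, 13 obstructed), the smallest that its 15000 arrangements allow. Of all genes, 9.16% lay below sham in this way on all 4 days. The daily differences were -0.45, -0.37, -0.53 and -0.54 for days 1, 2, 5 and 9, and only that of day 9 passed by itself (limma adjusted p = 0.0368). Leaving out 1 replicate moved them to between -0.513 and -0.396, -0.522 and -0.225, -0.627 and -0.342, and -0.784 and -0.301. The day 9 call was lost without S33L (-0.30), S09L or S36L, and with quantile normalization (limma adjusted p = 0.0543), array weights (0.0579) or that day alone (0.109).

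The 3 Nr1d1 probes all passed as lower over the 4 days, by -0.24 ± 0.06, -0.74 ± 0.23 and -0.45 ± 0.10. Nr1d2, which encodes the related receptor REV-ERB beta, had a difference of -0.29 ± 0.16 over all days (limma adjusted p = 0.136) and did not pass on any day. Its values ran from 0.86 to 1.90 in sham kidneys (median 1.52) and from -0.02 to 1.83 in obstructed kidneys (median 1.15), which overlap over most of their range. The lowest, -0.02, was the obstructed day 9 replicate S09L.

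**Figure D1:**
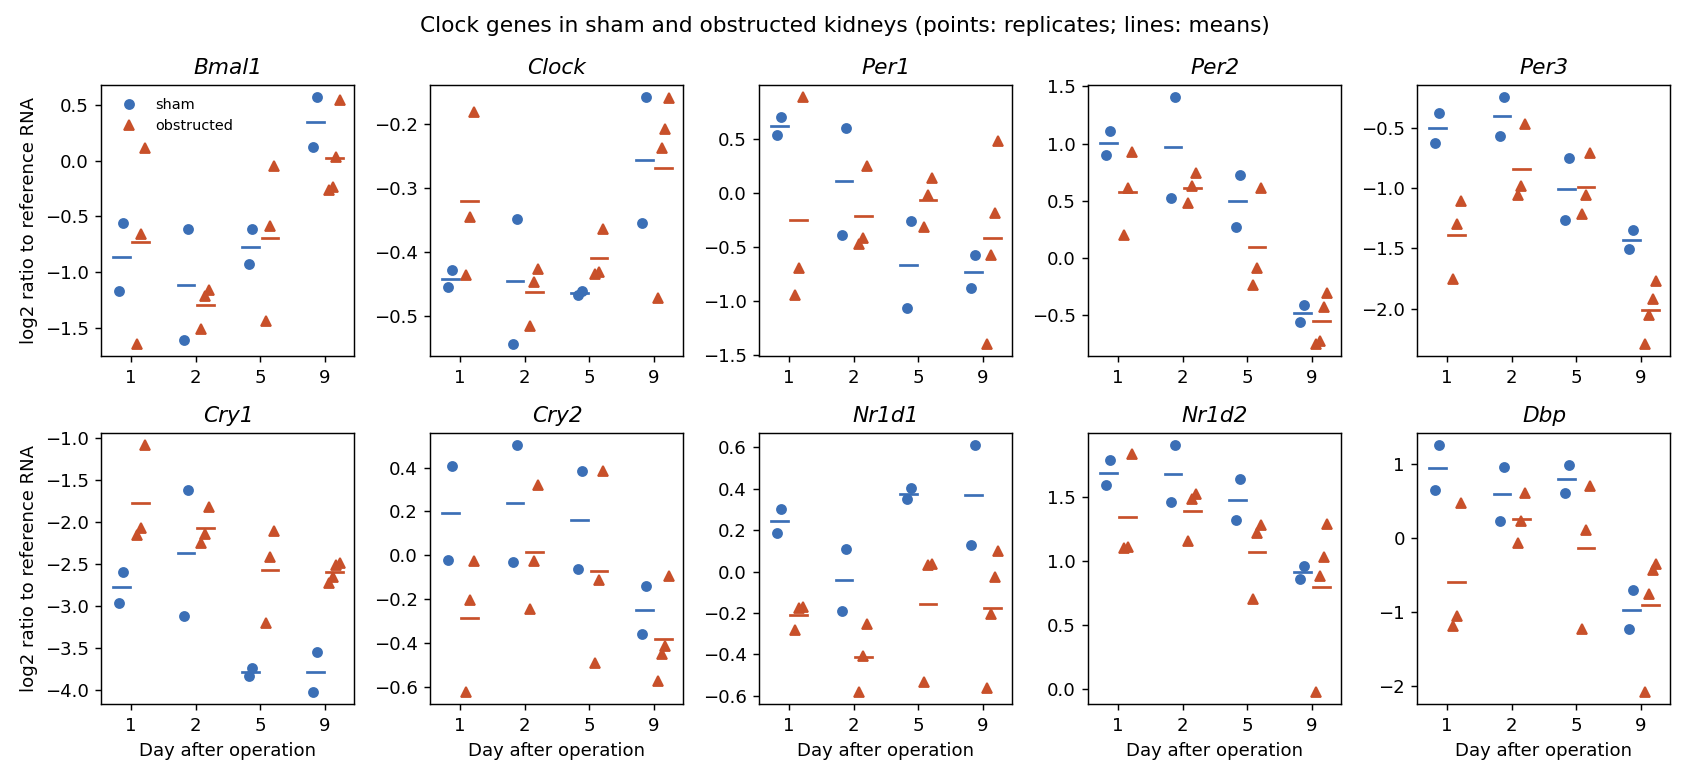
Log2 ratio to the reference RNA (vertical axis, a scale of its own in each panel) of each clock gene by day after operation, with a point per replicate, circles for sham, triangles for obstructed and lines at group means. Nr1d1 shows sham above obstructed at every day, Cry1 obstructed above sham at days 1, 5 and 9, and Bmal1 and Dbp shift in opposite directions at day 9 in both operations.

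The averaged Cry1 ratio lay below the reference on every array, and the operations did not overlap at 3 of the 4 days. At day 1 the sham values were -2.59 and -2.96 and the obstructed values -1.08, -2.16 and -2.06. At day 2 the sham replicates stood far apart, at -3.12 and -1.62, and enclosed the obstructed values of -2.24, -1.82 and -2.14. At day 5 the sham values were -3.83 and -3.73 against -3.20, -2.10 and -2.41. At day 9 they were -4.02 and -3.54 against -2.51, -2.72, -2.48 and -2.65. The groups were apart at days 1, 5 and 9. Of all genes, 17.8% lay above sham in this way on 3 or more days. The differences of 1.21 ± 0.40 at day 5 and 1.19 ± 0.38 at day 9 passed (limma adjusted p = 0.0344 and 0.0189), while that of 1.00 ± 0.40 at day 1 did not (0.0965). The day 5 call was lost without any of S22L, S32L, S21L and S31L, and also by either probe alone (limma adjusted p = 0.0999 and 0.0832). The day 9 call was lost without S10L, and both were lost with quantile normalization, at differences of 0.54 and 0.52.

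The 2 Cry1 probes disagreed in size. Probe 37491 gave a difference of 1.44 ± 0.28 over the 4 days, which passed, and probe 42556 gave 0.41 ± 0.21, which did not (limma adjusted p = 0.123). At day 9 probe 37491 read -3.66 and -4.24 in sham and -2.58, -2.07, -1.76 and -1.96 in obstructed kidneys. Probe 42556 read -4.37 and -2.84 against -2.43, -3.37, -3.21 and -3.33, so the groups overlapped by this probe. Besides the mean of the 4 days, probe 37491 passed at days 1 and 9 and not at day 5, and probe 42556 passed at no day. On the obstructed day 1 array S02L probe 37491 read -0.0764, level with the reference. Cry2, the second cryptochrome, had a difference of -0.27 ± 0.13 (limma adjusted p = 0.102), with sham values from -0.36 to 0.50 and obstructed values from -0.62 to 0.38. Its probes differed as well: 44579 passed as lower (-0.50 ± 0.13) and 40651 gave -0.03 ± 0.18.

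**Figure D2:**
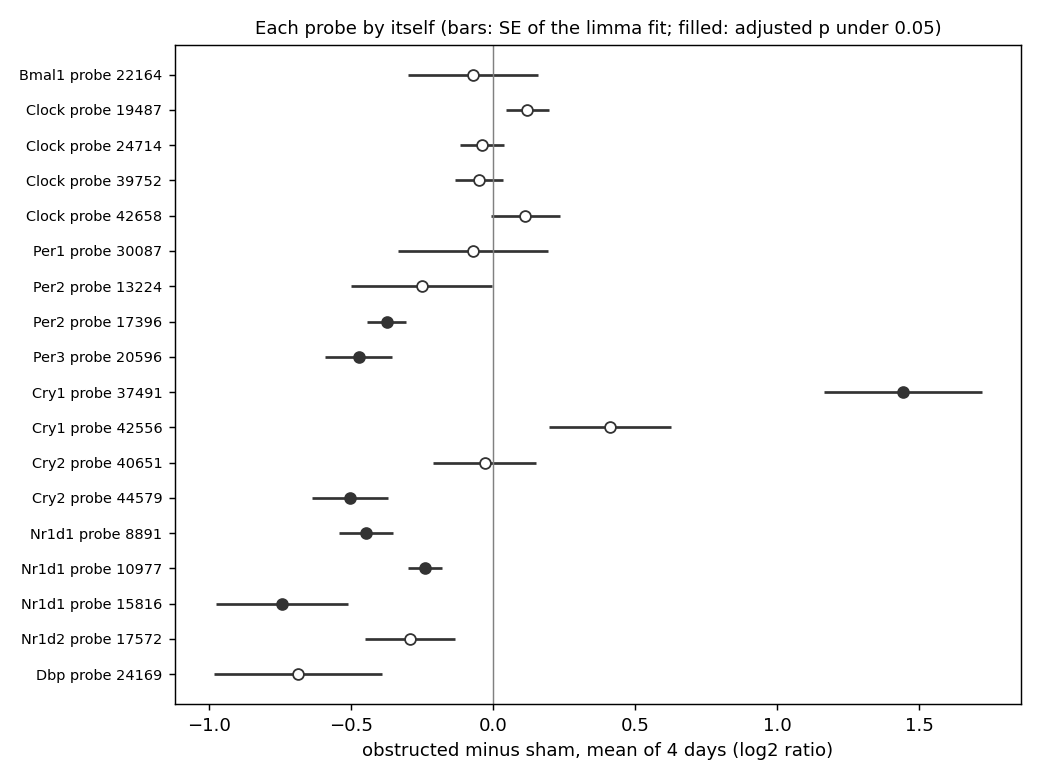
Difference between obstructed and sham kidneys over the 4 days (horizontal axis, log2 ratio) for each of the 18 probes, with bars for the SE of the limma fit and filled points for an adjusted p under 0.05. The 3 Nr1d1 probes all lie left of 0, and the Cry1 probes stand at 1.44 and 0.41.

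Per3 was lower at day 1 and at day 9, and its groups overlapped between these days. At day 1 the sham values were -0.37 and -0.63 and the obstructed values -1.76, -1.30 and -1.11. At day 9 they were -1.51 and -1.35 against -2.29, -1.77, -2.05 and -1.92. At both days every obstructed kidney was below both sham kidneys. The day 2 values were -0.57 and -0.25 against -0.99, -0.47 and -1.06, and the day 5 values -0.75 and -1.27 against -1.06, -0.71 and -1.22. The difference was -0.88 ± 0.24 at day 1 (limma adjusted p = 0.0177) and -0.58 ± 0.22 at day 9 (0.0494), beside -0.43 ± 0.24 at day 2 and 0.01 ± 0.24 at day 5. The day 1 call was lost without S03, S06R or S02L, with the image folder as a block (-0.78, limma adjusted p = 0.0621), in folder 2 alone (0.0717), on the L arrays (0.131) and with that day fitted alone (0.128), and that of day 9 in 14 of the 21 fits that left out a replicate, while the call over all 4 days held in all 21, for Per3 as for Cry1 and Nr1d1. The exact permutation test within days gave a 2-sided p of 0.00433 for Per3.

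Per2, a core repressor of the loop, had a difference of -0.31 ± 0.14 over the 4 days and missed the threshold (limma adjusted p = 0.0726). Its 2 probes behaved differently among sham kidneys as well. Probe 17396 varied little, with a range of 1.03 over all arrays, and passed as lower in obstructed kidneys (-0.37 ± 0.07). Probe 13224 had a range of 3.80, and in sham kidneys it read 1.25 to 2.12 on the day 1 arrays and -1.01 and -1.58 at day 9. Probe 17396 read 0.19 to 0.55 and 0.19 and 0.45 on the same arrays. Probe 13224 gave -0.25 ± 0.25 between the operations. Per1, which light, stress hormones and other signals can induce quickly in many tissues, had a difference of -0.07 ± 0.26 and opposite signs at day 1 (-0.87 ± 0.53) and day 5 (0.60 ± 0.53), neither of which passed. The largest SD of Per1 in any group was 0.99, in obstructed day 1 kidneys, where it was 0.88 in S02L and -0.94 and -0.70 in S05L and S38L.

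Among all 18 member probes, 1 passed as higher, 6 as lower and 11 as neither over the 4 days, beside 26.1% and 24.9% of all probes called higher and lower. Members with several probes were averaged after each probe's own mean was removed.

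Averaged over its 4 probes, Clock, the partner of BMAL1, had nearly the same level in all kidneys. Its values ran from -0.54 to -0.16 in sham and from -0.52 to -0.16 in obstructed kidneys, and the difference was 0.04 ± 0.06 (limma adjusted p = 0.603). None of its 4 probes passed, although probe 42658 by itself varied more, from -0.75 (sham day 1, S06R) to 0.40 (obstructed day 9, S35L). Bmal1 had a difference of -0.07 ± 0.23 (limma adjusted p = 0.814), but unlike Clock it varied widely. In sham kidneys it was -1.17 and -0.56 at day 1, -0.62 and -1.61 at day 2, -0.62 and -0.93 at day 5, and 0.57 and 0.12 at day 9. The day 9 sham mean of 0.34 ± 0.32 (SD, n = 2) was the highest, and the other 3 days, from -1.11 to -0.77, overlapped each other. In obstructed kidneys Bmal1 was 0.11, -0.66 and -1.64 at day 1 and -1.51, -1.21 and -1.16 at day 2. It was -0.59, -1.43 and -0.05 at day 5 and 0.55, -0.27, 0.03 and -0.23 at day 9.

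Dbp, a transcription factor driven directly by BMAL1 and CLOCK, mirrored Bmal1. In sham kidneys it was 1.25 and 0.65 at day 1, 0.22 and 0.95 at day 2, 0.60 and 0.98 at day 5, and -1.23 and -0.71 at day 9. Both day 9 sham kidneys thus had less Dbp and more Bmal1 than any other sham kidney. In obstructed kidneys Dbp was -1.20, -1.06 and 0.48 at day 1, 0.60, -0.07 and 0.22 at day 2, 0.11, 0.70 and -1.23 at day 5, and -2.08, -0.35, -0.76 and -0.44 at day 9. The mean difference of -0.69 ± 0.30 missed the threshold (limma adjusted p = 0.0635), and so did the day 1 difference of -1.54 ± 0.60 (0.0915). At day 9, where sham Dbp was low as well, the difference was 0.06 ± 0.57.

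**Figure D3:**
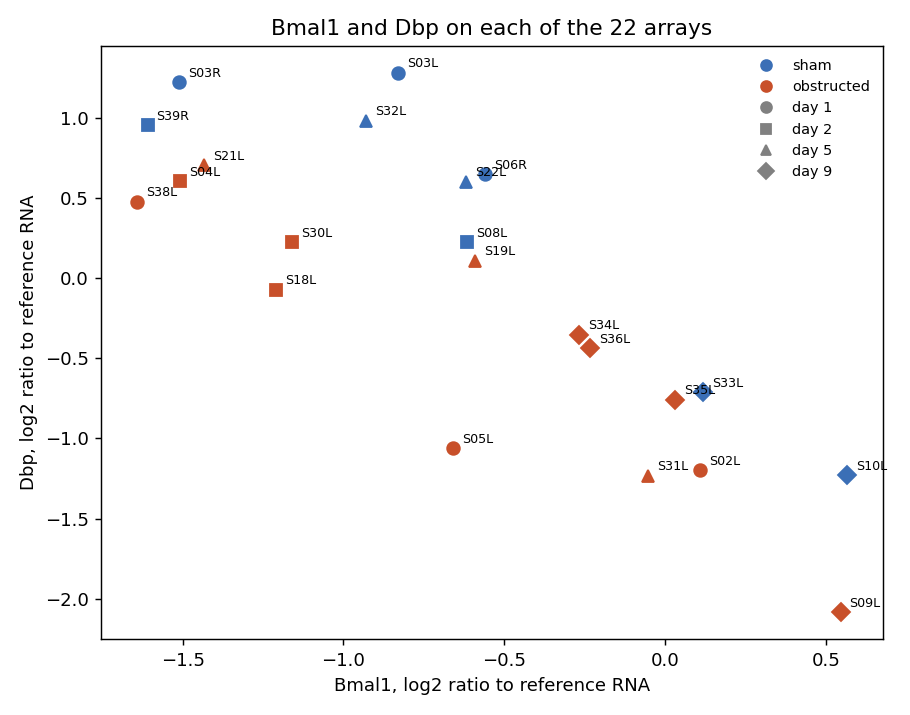
Log2 ratio to the reference RNA of Bmal1 (horizontal axis) and Dbp (vertical axis) on each of the 22 arrays, coloured by operation with a marker shape for each day. In both operations Dbp falls as Bmal1 rises, and obstructed arrays mostly lie below sham arrays of similar Bmal1. The day 9 sham arrays S10L and S33L lie towards the lower right. Towards the upper left lie the sham arrays S39R and S03R and the obstructed arrays S38L and S21L.

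Replicates of a single group lay far apart in Bmal1 and Dbp. Of the obstructed day 1 kidneys, S02L and S05L had low Dbp (-1.20 and -1.06), with Bmal1 at 0.11 and -0.66. S05L thus lay below the sham kidneys of similar Bmal1, such as S22L (Bmal1 -0.62, Dbp 0.60). S38L had high Dbp (0.48) with the lowest Bmal1 of all obstructed kidneys (-1.64). At day 5, S31L (Dbp -1.23, Bmal1 -0.05) and S21L (Dbp 0.70, Bmal1 -1.43) stood far apart. Within image folder 1, the day 5 difference in Dbp was -0.19, and within folder 2, with 1 kidney of each operation, it was -2.21; for Cry1 these were 1.18 and 1.32. The image folder, named in the array descriptions, is the only hint of a batch, and day 5 is the only day at which both folders hold both operations.

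Across the 21 replicates, Bmal1 and Dbp had a Pearson r of -0.83 (Spearman -0.77), and -0.76 over the 19 left when the 2 replicates farthest in Bmal1 were taken out. It was -0.93 over the 8 sham replicates, -0.90 over the 13 obstructed replicates and -0.86 over the 17 replicates of image folder 2. These are descriptions: the points share days and operations. With each group's mean removed, r was -0.91 over 21 replicates, although in groups of 2 such deviations mirror each other. By that measure Dbp had the lowest r with Bmal1 of 16128 genes without missing values, followed by 1700029J07Rik, Nthl1, Sdr42e1 and Klhl23 (-0.88 to -0.85). The highest were Fcgr4, Rnf11, Il4ra, Avpr1a and Lrrc58 (0.93 to 0.88). Nr1d2 had the highest r with Dbp (0.91), followed by Fancc, Banp, Siva1 and Rbmxl1 (0.86 to 0.81). No member was among the genes most like Cry1, which were Ppp1r32, Fam24b, Lrrc47, Blcap and Lgals4 (0.89 to 0.83), those least like it Cd180, Kiss1r, Tbc1d24, Acvrl1 and Trip11 (-0.91 to -0.87), and its r with Bmal1 was -0.10 and with Dbp 0.00.

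**Figure D4:**
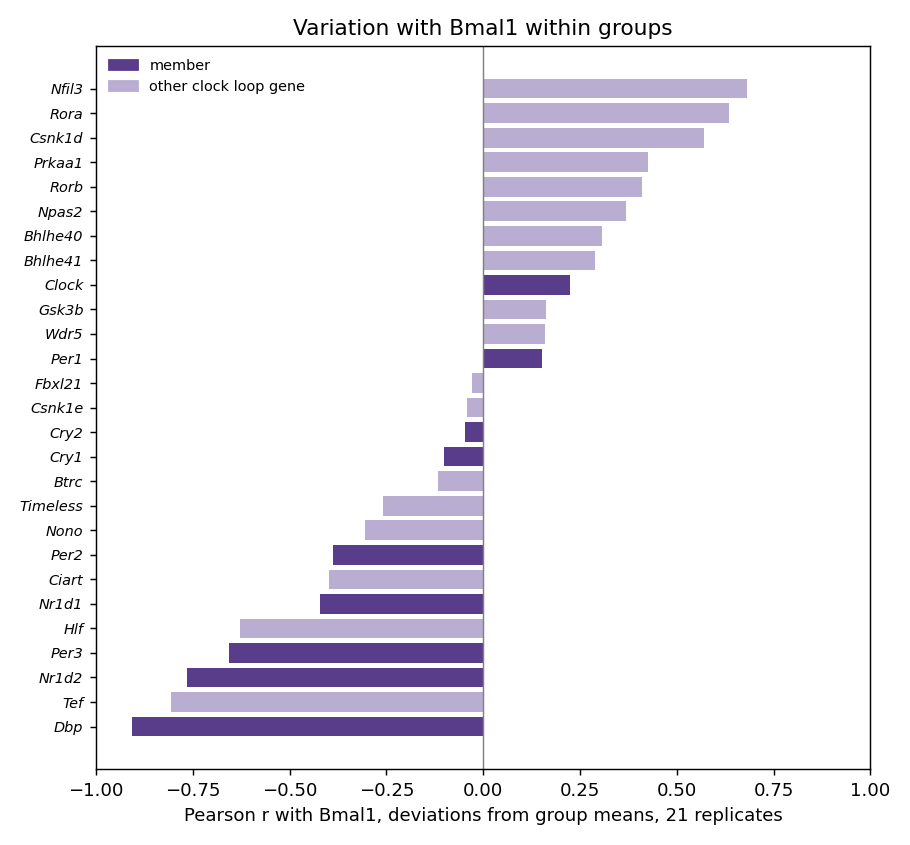
Pearson r with Bmal1 (horizontal axis) of deviations from group means over 21 replicates, for members (dark bars) and other clock loop genes (light bars). Dbp, Tef, Nr1d2 and Per3 lie at the negative end, from -0.91 to -0.66, and Clock stands at 0.23.

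The spread between sham kidneys was examined as a hint of the hour of collection. Between the means of the 4 sham days, the members had a median SD of 0.56 beside 0.15 for all genes, and Dbp (0.89, at the 99.4th percentile of all genes), Cry1 (0.72, 98.5th), Per2 (0.69, 98.3rd), Per1 (0.65, 97.8th) and Bmal1 (0.65, 97.8th) were among the most variable. Clock, at 0.10 and the 28.4th percentile, and Nr1d1, at 0.19 and the 64.5th, were not. These 2 average the most probes, while Dbp, Bmal1 and Per1 rest on a single probe each, and averaging can lower an SD. By single probes, ranges over all arrays were 0.69, 2.50 and 1.11 for Nr1d1 and 0.64 to 1.15 for Clock. They were 2.21 to 3.36 for Dbp, Bmal1 and Per1, and 3.80 (13224) and 1.03 (17396) for Per2. Within sham days the median SD was 0.33 for the members and 0.21 for all genes, and within obstructed days 0.36 and 0.23. Between obstructed day means it was 0.34 and 0.22. The sham arrays S03L and S03R of the same animal number differed by 0.68 in Bmal1 and 0.76 in Cry1, and by 0.06 in Dbp. Regardless of sign, their median difference was 0.26 for the members and 0.25 for all genes. Over all genes the r of these 2 arrays was 0.967, within the range of the other sham pairs (0.95 to 0.971).

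The limma F test of a difference between sham days called 0 genes (0%) after adjustment, members included. At an unadjusted p under 0.05, 5.53% of all genes passed, and 4 of the 10 members did. They were Per2 (unadjusted p = 0.000699, 19th of all genes), Per3 (0.00424), Cry1 (0.00963) and Dbp (0.0376), and Bmal1 had 0.0516, all by limma. After adjustment the lowest of these was 0.597, for Per2. The Per2 value averages 2 unlike probes, with ranges over all arrays of 3.80 (13224) and 1.03 (17396). Only 13224 fell in sham kidneys, with a limma F test adjusted p of 0.38 among all probes, while 17396 read much the same at days 1 and 9. Both day 9 sham kidneys had the lowest averaged Per2 (-0.41 and -0.56), Per3 and Nr1d2 (0.86 and 0.96) of all sham kidneys as well as the lowest Dbp. Nr1d1 did not share this pattern, at 0.13 in S10L and 0.61, its highest sham value, in S33L. Its lowest sham value, -0.19, was in S39R, the sham kidney with the lowest Bmal1 (-1.61). Hour of collection and days since surgery cannot be told apart here, and the part of either was not tested.

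Between the days after obstruction, 33.4% of all genes differed by the F test, and 2 members did, Per2 (limma adjusted p = 0.00343) and Per3 (0.00127). Per2 in obstructed kidneys averaged 0.58 ± 0.37 (SD, n = 3) at day 1, 0.62 ± 0.13 (n = 3) at day 2, 0.10 ± 0.45 (n = 3) at day 5 and -0.55 ± 0.22 (n = 4) at day 9. In sham kidneys it averaged 1.01, 0.97, 0.50 and -0.48, so by the average of its 2 probes both operations ended low. The fall in sham kidneys was that of probe 13224, and 17396 read much the same there at days 1 and 9. At day 9, 17396 was lower in obstructed than in sham kidneys (-0.62 ± 0.13, limma adjusted p = 0.00153), and 13224 was not (0.48 ± 0.48). The effect of obstruction itself differed between days in 5.31% of genes and in 0 members.

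The members called by day are given beside the share of all genes. At day 1, Per3 was lower and no member higher, beside 8.25% of all genes higher and 9.5% lower. At day 2, 0 members passed in either direction, beside 8.88% and 6.73%. At day 5, Cry1 was higher and none lower, beside 14.1% and 12.2%; of all calls at that day 53.6% were higher, and 39.9% without subtraction of the array medians, which moved the median of all genes by -0.10. At day 9, Cry1 was higher and Nr1d1 and Per3 lower, beside 20.6% and 21.3%.

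**Figure D5:**
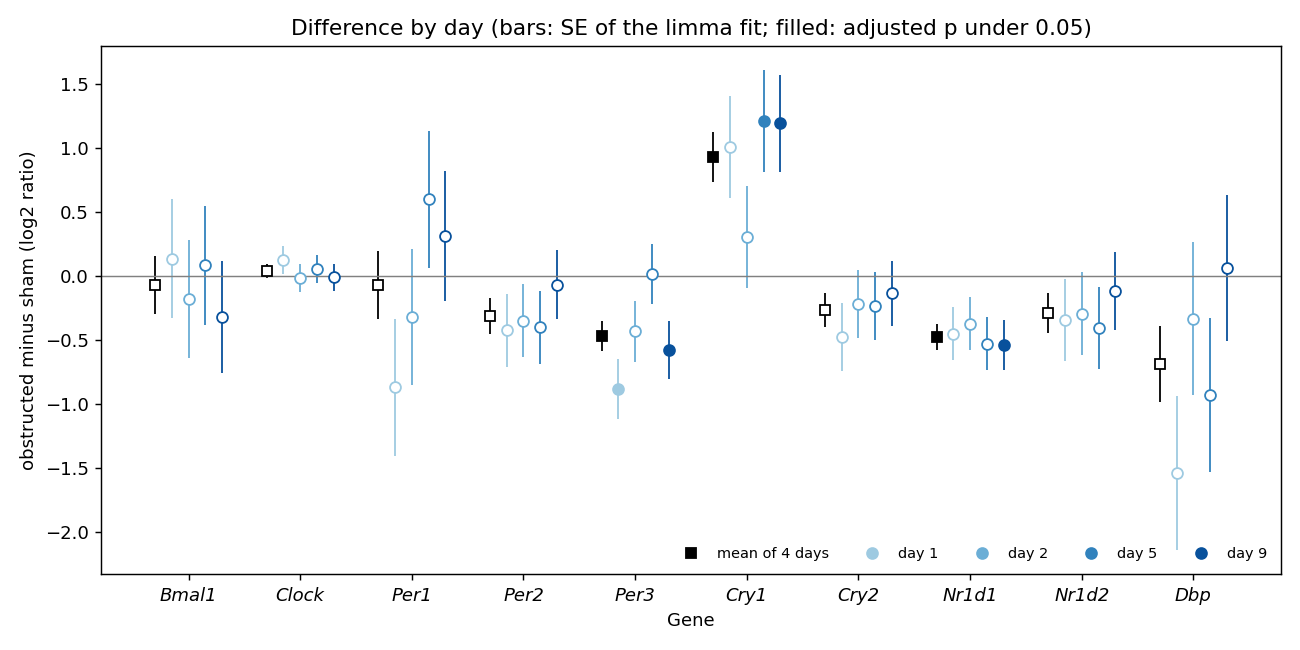
Difference between obstructed and sham kidneys (vertical axis, log2 ratio) of each clock gene for the mean of the 4 days (black squares) and for each day (blue circles, darker for later days), with bars for the SE of the limma fit and filled symbols for an adjusted p under 0.05. Nr1d1 lies between -0.37 and -0.54 at every day, and Dbp moves from -1.54 at day 1 to 0.06 at day 9.

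Of 20 other genes of the clock loops, 18 were measured, and over the 4 days 7 were higher and 5 lower (median difference 0.05, and -0.02 for all genes). Hlf and Tef, which encode the relatives of DBP that bind the same D-box, were lower by limma, with differences of -1.75 ± 0.15 (adjusted p = 1.24e-07) and -1.06 ± 0.14 (1.04e-05). Tef was 1.79, 1.81, 1.66, 1.89, 1.36, 1.57, 0.69 and 0.90 in the sham kidneys of days 1, 1, 2, 2, 5, 5, 9 and 9, and the day 9 pair was again the lowest. In obstructed kidneys its day means were 0.22, 1.06, 0.48 and -0.18. Prkaa1, a catalytic subunit of the energy sensor AMPK, which marks cryptochromes for breakdown, was higher (0.49 ± 0.06), as was Csnk1d (0.35 ± 0.05), a casein kinase that phosphorylates the Period proteins.

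Of 15 genes known to cycle under the clock in many tissues or in the kidney, 14 were measured, and 3 were higher and 10 lower (median -0.57). Edn1, the vasoconstrictor endothelin 1, rose by 3.11 ± 0.19 and Tspan4, a tetraspanin, by 1.10 ± 0.10. Usp2, a deubiquitinase, had a difference of -1.31 ± 0.13 and Aqp2, the water channel of the collecting duct, of -0.60 ± 0.08, both lower by limma. Aqp2 is also among the kidney tissue markers. Glucocorticoid-induced genes, whose hormone follows a daily rhythm, had 4 of 11 measured genes higher and 2 lower, with Cdkn1a at 1.81 ± 0.21 and Klf9 at -0.73 ± 0.15. Of 7 measured temperature-responsive genes 2 were higher, Rbm3 (0.72 ± 0.10) and Cirbp (0.47 ± 0.19), and 1 lower, Hsph1 (-0.66 ± 0.17).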

How the data were processed

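The series has a single table of ratios for 45220 spots on 22 arrays. The authors deposited log ratios of Cy5-labelled kidney RNA over Cy3-labelled reference RNA, per the labels, and their base was inferred as log10 from the deposited values, which ran from -3.11 to 4; multiplied by 3.32 they are log2 ratios. The design had assumed log2, and the test was kept. Of scanner, background correction and dye normalization nothing is given in the sources used here. Between 5147 and 9271 values of an array were exactly 0 and were read as missing, which left 35747 to 39871 ratios. Precision is limited by the number of replicates.

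Each array's median was subtracted, and probes naming 1 gene with a value on at least 18 arrays and in every group were kept. Probes of a gene were averaged after each probe's mean was removed and the gene's mean restored. A single fit of 8 group means (limma 3.58.1, R 4.3.3, lmFit and eBayes, Benjamini-Hochberg at 0.05) gave the differences by day, their mean and F tests between days. It was tested on simulated data. The members and all lists were chosen with earlier results of these data known. All 10 members are named whatever their result, of other lists at most the 4 genes of lowest p, and for Bmal1, Dbp and Cry1 the 5 genes most and least alike.

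Alternatives were no centring, quantile normalization, zeros kept, other filters on missing values, single probes, array weights, robust eBayes, S03L and S03R apart, arrays marked L alone, image folder as a block or folder 2 alone, each day by itself, an additive model, a permutation test and leaving out each replicate. A plain average of probes was added after the data were seen.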

Additional observations from a re-analysis of the deposited data

Results flagged for a closer look

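Among the 4 obstructed day 9 kidneys, Cry1 probe 42556 read -2.43 in S09L and -3.37, -3.21 and -3.33 in the others, a gap to the nearest that took up 0.831 of the range of the 4, above Dixon's critical value. The same kidney had the lowest value of the other Cry1 probe in that group (-2.58), so the gene average of S09L, -2.51, did not stand apart. In all, 23 such groups of 4 were examined, over the members and the probes of those with several, and chance sets a sample apart in about 1 in 20. Its cause was not tested.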

How the results depend on the processing

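Over the 4 days 3 members passed, and leaving out a replicate gave 3 in 17 of 21 fits, 4 without S08L, S02L or S38L and 6 without S21L (range 3 to 6). Array weights gave 6 (Per2, Cry2 and Dbp added, all lower) and single probes, with a member counted if any probe passed, gave 5. Quantile normalization lost Cry1. Per2 was added without centring (limma adjusted p = 0.0469), and Dbp with S03L and S03R as separate replicates (0.042). In folder 2 alone, where some groups hold 1 replicate, the Dbp difference was -1.08. At day 1 the count of 1 became 2 with S03L and S03R as separate replicates, 3 by single probes, and 0 with the L arrays only, the folder block, folder 2 alone or that day alone; leaving out a replicate gave 0 to 2. At day 5 the count of 1 became 0 with quantile normalization, zeros kept, array weights, folder 2 alone or that day alone, and 0 to 2 without a replicate. Without centring the gene changed, as Cry1 was lost (limma adjusted p = 0.0542) and Nr1d1 passed (0.0352). By single probes at day 5, Cry1 was lost and Per2 passed (17396, limma adjusted p = 0.0306). At day 9 the count of 3 became 1 with quantile normalization and with array weights, and 1 to 3 without a replicate. By single probes at day 9, Per2 passed (17396, limma adjusted p = 0.00153) and Per3 did not (0.054). Per3 was also lost at day 9 with robust eBayes (limma adjusted p = 0.0504) and with values required on 11 arrays (0.0507). The same held with S03L and S03R as separate replicates (0.0508). Its difference was -0.58 with the L arrays and in folder 2 alone. Nr1d1 was lost with that day alone (0.109). The median SD between sham replicates of a day stayed within the spread of the members' SDs under its alternatives. The cause of these changes was not tested, beyond the fewer samples that some settings hold.

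No difference that passed changed its sign under any alternative; the following, none of which had passed, did. Without centring, Clock over all days was -0.00434, Dbp at day 9 -0.00146, and at day 5 Per3 was -0.0880, Bmal1 -0.0194 and Clock -0.0468. Quantile normalization gave -0.0420 for Clock over all days, -0.181 for Cry1 at day 2, -0.175 for Dbp at day 9, and at day 5 -0.195 for Per3, -0.0889 for Bmal1 and -0.0361 for Clock. With zeros kept, Per3 at day 5 was -0.0460 and Clock -0.00474. Per3 at day 5 was also -0.0124 with values required on all 22 arrays, -0.0467 with array weights and -0.0225 with the folder block. Array weights gave 0.0456 for Clock and 0.125 for Nr1d2 at day 9. Arrays marked L alone gave 0.0489 for Per1 and -0.0317 for Clock over all days, -0.0528 for Clock at day 1, and 0.174 for Per1, 0.0882 for Per2, 0.0446 for Cry2 and 0.0306 for Dbp at day 2. Folder 2 alone gave 0.0606 for Per1 and 0.204 for Bmal1 over all days. By single probes, Clock was 0.0179 at day 2 and 0.174 at day 9 (19487), -0.0383 over all days and -0.0442 at day 1 (24714), -0.0507 over all days, 0.0842 at day 2 and -0.0208 at day 5 (39752) and 0.116 at day 9 (42658). Cry1 was -0.0955 at day 2 (42556), Cry2 0.150 at day 2 and 0.118 at day 9 (40651), and Per2 0.482 at day 9 (13224).

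Leaving out a replicate gave these ranges. Bmal1 ran from -0.29 to 0.59 at day 1, -0.68 to 0.32 at day 2, -0.24 to 0.45 at day 5 and -0.196 to 0.0526 over all days. At day 2, Clock ran from -0.115 to 0.0809, Cry1 from -0.45 to 1.05, Cry2 from -0.485 to 0.0446, Dbp from -0.698 to 0.0306, Per1 from -0.81 to 0.17 and Per2 from -0.790 to 0.0882. At day 9, Clock ran from -0.111 to 0.0857, Dbp from -0.20 to 0.45, Nr1d2 from -0.28 to 0.16 and Per2 from -0.15 to 0.00723. Per3 at day 5 ran from -0.25 to 0.27 and Per1 over all days from -0.214 to 0.0521.

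Counts of all genes moved by over 1.5 times in some settings. At day 1 the 3025 genes became 1195 with arrays marked L, 936 in folder 2 and 150 with that day alone. At day 2 the 2660 became 1671 with quantile normalization and 1237 with arrays marked L. At day 5 the 4467 became 1269 in folder 2 and 2594 with that day alone. For the difference of the effect between days, the 905 became 1379 with array weights, 431 with arrays marked L, 534 with the folder block and 25 in folder 2; between sham days, the 0 became 18 with arrays marked L and 1 with zeros kept. Without a replicate the counts ran from 1122 to 3181 at day 1, 1034 to 2990 at day 2, 2662 to 4852 at day 5 and 4488 to 7468 at day 9 (7136 with all), from 268 to 1363 for the difference of the effect between days and from 0 to 39 between sham days, where 39 was without S03. The lowest came without S06R at day 1, S08L at day 2, S22L at day 5, S33L at day 9 and S06R for the effect between days. No paired analysis was possible because the groups share no replicate numbers. With 2 sham kidneys a day, a daily difference rests on few animals, and signal over background was not analysed here.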
